A study of Homo sapiens with 16 samples.

Results

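Cultures labelled as islets made in vitro from HUES08 (also written HUES8; genotype WT), a long-established line of human embryonic stem cells, were grown flat. Colchicine at 10 nM was given from stage 5 onward until stage 6 had lasted 7 days. The colchicine libraries, 2 of the 16 in the series, were chosen by their treatment label and compared first with the 2 libraries that received the solvent DMSO and then with the 12 libraries of the 6 other compounds. Those compounds were epirizole (2.5 uM), Ly-294002 (120 nM), moxifloxacin (1.1 uM), rottlerin (1.23 uM), vardenafil (125 nM) and rimonabant (125 nM), with 2 libraries each over the same stages. The 12 libraries served to tell what moved with colchicine from what moved in treated cultures at large. All 16 libraries carry batch label 1. Whether both libraries of one treatment were grown as separate cultures is not stated in the labels. The p-values accordingly reflect library-to-library spread, and whether that is a spread between separate cultures is not known.

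Colchicine is a plant alkaloid that binds tubulin and keeps it from assembling into microtubules, the hollow filaments that carry transport inside the cell and form the mitotic spindle. Cells adjust their tubulin mRNA to the pool of unassembled tubulin: when free tubulin rises, the first amino acids of a new tubulin chain are recognised as they leave the ribosome and the mRNA is degraded. Cells held in mitosis or stressed in other ways can stabilise p53, a transcription factor that switches on inhibitors of the cell cycle, DNA repair genes, apoptosis genes and its own inhibitor MDM2.

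Whole cultures were lysed, so fewer cells of a type and less RNA per cell cannot be told apart. Insulin (INS) lay at only 0.652 to 6.24 CPM (counts scaled to library size, normalised by TMM) over the 16 libraries, and alpha-fetoprotein (AFP), a marker of fetal liver, at 2568 to 6976 CPM. The endocrine score, the mean log2 CPM of 19 endocrine genes, was 3.28 in Colchicine 1 and 1.89 in Colchicine 2, against 3.22 and 2.39 in DMSO and a range of 1.56 to 3.87 over the other compounds. Libraries also differed along transcript GC content. The log2 difference between the deviations of GC-rich and GC-poor genes was -0.36 and -0.42 in the DMSO libraries, the lowest of the 16, 0.12 and 0.09 with colchicine, and -0.23 to 0.83 with the other compounds. Library totals were 25875811 and 28969305 reads with colchicine and 23294377 and 26449943 with DMSO. Across all 16 libraries, the detection floor of 3 reads was worth between 0.0977 and 0.129 CPM.

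Against the other compounds, the called genes were CDKN1A and DDB2, both p53 targets, PURPL, a p53-induced noncoding RNA, and MYADM. These 4 of 24515 tested genes rose (0.0163%) by the edgeR quasi-likelihood test with Benjamini-Hochberg adjustment and a threshold of 0.05. None fell (0.0%), among 957 genes lower at an unadjusted p under 0.05, and DESeq2 called 32 higher and 49 lower. Against DMSO 31 genes rose (0.126%) and 17 fell (0.0693%). Between the 6 other compounds as one group and DMSO edgeR called no gene (0.0%), although 3701 had an unadjusted p under 0.05 and DESeq2 called 441. The comparisons with DMSO share the DMSO libraries, and both colchicine comparisons share the colchicine libraries, so they are given side by side and not as separate support.

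CDKN1A encodes p21, an inhibitor of cyclin-dependent kinases and a target of p53. It read 106 and 114 CPM in the colchicine libraries and 53.3 and 47.4 CPM in DMSO, and the 12 libraries of the other compounds ran from 49.3 over a median of 62.3 to 83.5 CPM. Both colchicine libraries were above each of the 14 others, and the groups did not overlap. Such an order held for 1.13% of all tested genes, and CDKN1A was set beforehand as a marker of the colchicine libraries. The log2 change was 0.82 against the other compounds (SE 0.07, adjusted p = 0.000205) and 1.13 against DMSO (SE 0.10, adjusted p = 0.000297). With an offset for the GC content of each transcript these were 0.82 and 0.99, and CDKN1A passed in all 27 alternatives of the first comparison and all 15 of the second. Taken compound by compound, the difference was 0.87 from epirizole (adjusted p = 0.00723), 1.09 from Ly-294002 (0.000423), 0.78 from moxifloxacin (0.0304), 0.99 from vardenafil (0.00153) and 0.74 from rimonabant (0.0276). Rottlerin, the next highest group at 81.3 and 83.5 CPM, was the exception: the difference of 0.42 did not pass (adjusted p = 0.638), and rottlerin itself was above DMSO by 0.71 (adjusted p = 0.0485). Of the 6 pairwise comparisons, CDKN1A passed 5. The gene (ENSG00000124762) lies on chromosome 6 at 36676460-36687339 (GRCh38), plus strand, where DINOL overlaps it on the other strand.

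DDB2, which recognises ultraviolet damage for nucleotide excision repair and is a p53 target, read 47.3 and 51.4 CPM with colchicine, 32.6 and 28.98 CPM with DMSO, and 29.2 to 38.4 CPM (median 32.2) with the other compounds. The other compounds lay 0.08 above DMSO on the log2 scale, and DDB2 rose under colchicine by 0.61 against them (SE 0.09, adjusted p = 0.0349) and 0.68 against DMSO (SE 0.12, adjusted p = 0.0401). PURPL read 274 and 330 CPM with colchicine, 240 and 258 CPM with DMSO and 179 to 229 CPM (median 215) with the other compounds, so that DMSO lay between the treated groups. Its rise of 0.53 against the other compounds passed (SE 0.07, adjusted p = 0.025), while the 0.28 against DMSO did not (SE 0.10, adjusted p = 0.151). MYADM, a membrane protein of lipid rafts, read 156 and 146 CPM with colchicine, 103 and 92.1 CPM with DMSO and 100 to 123 CPM with the others, a rise of 0.41 against the other compounds (SE 0.06, adjusted p = 0.0439). In both colchicine libraries each of these 3 genes lay above every other library, which held for 1.13% of all tested genes. Being called higher than the other compounds favours that order, so it is not separate support. Without Colchicine 2 the log2 differences from the other compounds were 0.55 for DDB2, 0.39 for PURPL and 0.46 for MYADM, with adjusted p of 0.61, 0.657 and 0.49, and CDKN1A alone was called. Over 27 alternatives DDB2 ranged from 0.55 to 0.67 and passed in 17, PURPL from 0.39 to 0.66 and passed in 25, and MYADM from 0.36 to 0.46 and passed in 10.

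**Figure D1:**
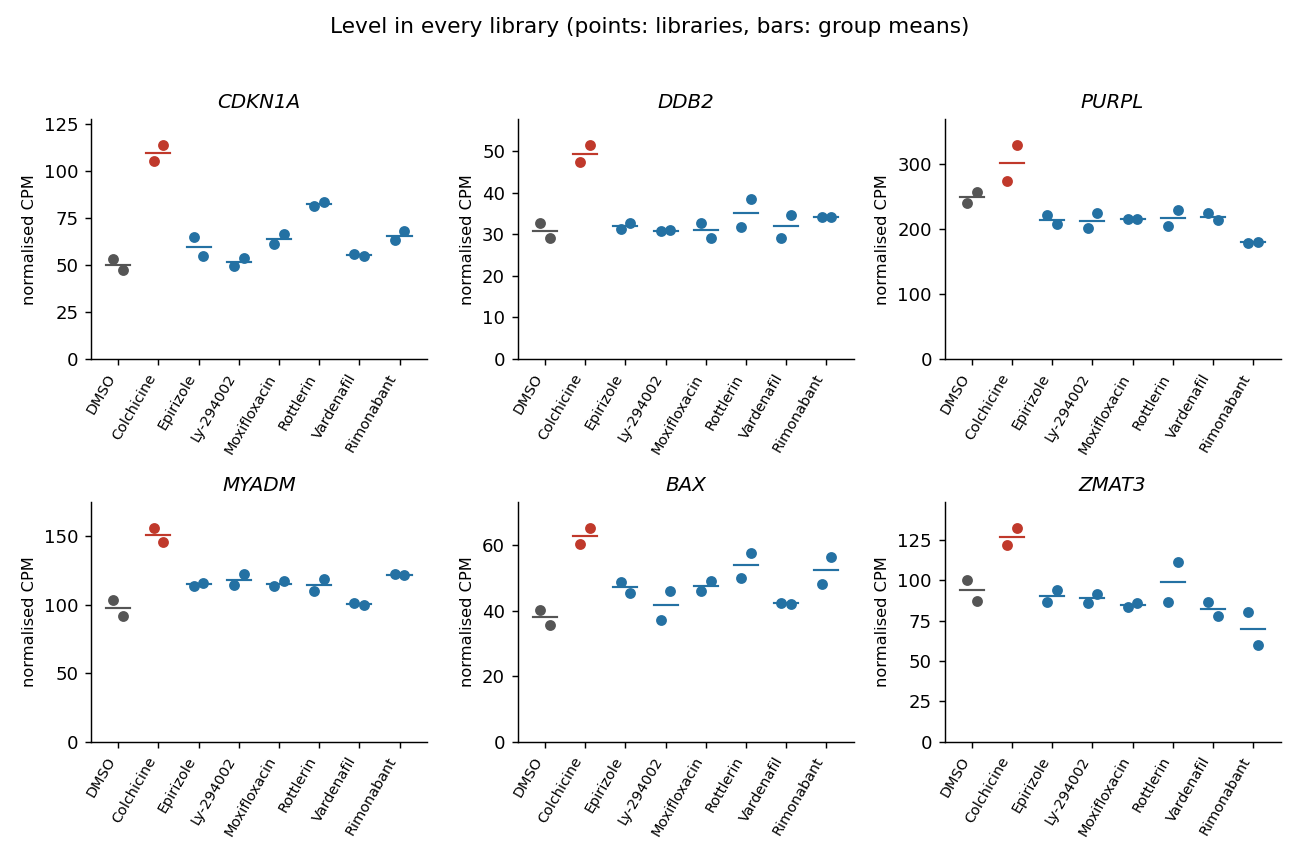
Normalised CPM (vertical axes, from 0) of CDKN1A, DDB2, PURPL, MYADM, BAX and ZMAT3 in each of the 16 libraries, by group; points are libraries and bars are means of 2. Both colchicine points stand above the other 14 in every panel, and the rottlerin points are the next highest group for CDKN1A.

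The lists of p53 targets held 32 tested genes in 3 roles. Like the other gene lists here, they were chosen with earlier results of these data known. They include CDKN1A, DDB2 and BAX, which were set beforehand as markers of the colchicine libraries. The counts below therefore describe the lists and are not independent support. Against the other compounds 29 of 32 lay above 0, with a median log2 difference of 0.34 and 2 called, and against DMSO 26 of 32, with a median of 0.38 and 4 called (CDKN1A, BAX, DDB2 and AEN). Over all tested genes the medians were 0.00 and -0.01, and 49.92% and 48.83% lay above 0. Of all tested genes 0.0163% were called higher against the other compounds and 0.126% against DMSO. In 15 of the 32 both colchicine libraries stood above all 14 others, which held for 1.13% of all tested genes (278), and in none did both stand below, which held for 1.53% (376). For the mean of the other compounds against DMSO 15 lay above and 17 below, with a median of -0.02. Summed over the 32 targets the colchicine libraries held 2193 and 2309 CPM, DMSO 1950 and 1986 CPM and the other compounds 1741 to 2153 CPM, the highest being Rottlerin 2. Over the 11 apoptosis targets Rottlerin 2 held 694.8 CPM, above the 674.4 and 677.9 CPM of the colchicine libraries. With the GC offset the medians were 0.35 against the other compounds and 0.38 against DMSO. In the former CDKN1A, DDB2 and ZMAT3 passed, and in the latter CDKN1A alone, so that BAX, DDB2 and AEN no longer did. The medians in Colchicine 1 and Colchicine 2 taken singly were 0.29 and 0.40 above the other compounds.

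Among the targets that repair DNA, all 4 lay above every other library in both colchicine libraries, which held for 1.13% of all tested genes. Besides DDB2 these were XPC, which finds helix-distorting lesions, with 74.7 and 78.7 CPM against 58.3 to 69.9 CPM with the other compounds and 63.3 and 73.0 CPM with DMSO, POLH, the polymerase that copies past ultraviolet damage (21.7 and 30.5 CPM against 16.1 to 21.1 CPM with the other compounds), and RRM2B, the p53-inducible subunit of ribonucleotide reductase (62.5 and 60.3 CPM against 30.3 to 53.5 CPM). None of these 3 passed the threshold: their log2 differences from the other compounds were 0.25 for XPC, 0.52 for POLH and 0.44 for RRM2B (adjusted p = 0.425, 0.239 and 0.295 by edgeR).

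Among the targets that act in apoptosis, 4 of 11 stood above all other libraries, against 1.13% of all tested genes. BAX, which opens the outer mitochondrial membrane, read 60.3 and 65.4 CPM with colchicine, 40.3 and 35.7 CPM with DMSO and 37.3 to 57.7 CPM (median 47.2) with the other compounds. It rose by 0.73 against DMSO (SE 0.12, adjusted p = 0.0401), but its difference of 0.41 from the other compounds did not pass (SE 0.09, adjusted p = 0.228), which themselves lay 0.32 above DMSO. AEN, a nuclease of apoptotic cells, read 55.6 and 55.1 CPM with colchicine, 37.9 to 50.6 CPM with the other compounds and 39.6 and 32.2 CPM with DMSO, a rise of 0.63 against DMSO (SE 0.12, adjusted p = 0.0468) and a difference of 0.39 from the other compounds (adjusted p = 0.228). The death receptors FAS and TNFRSF10A were at 5.00 and 6.47 CPM and at 10.6 and 11.2 CPM with colchicine, against 2.52 to 4.32 CPM and 5.50 to 9.97 CPM with the other compounds. Their log2 differences of 0.86 and 0.54 from the other compounds did not pass (adjusted p = 0.164 and 0.414). Neither BBC3 (PUMA) nor PMAIP1 (NOXA), the BH3-only activators of apoptosis, stood out: BBC3 differed by 0.23 (SE 0.18) and PMAIP1 by -0.33 (SE 0.18), at 4.22 and 4.75 CPM against 4.02 to 7.85 CPM.

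Among the 17 targets of cell cycle arrest and stress, 7 stood above all other libraries, against 1.13% of all tested genes. ZMAT3, an RNA-binding protein that p53 induces, read 122 and 133 CPM with colchicine, 100 and 87.3 CPM with DMSO and 59.6 to 111 CPM with the other compounds, a difference of 0.57 from the latter (SE 0.10, adjusted p = 0.127, and 0.04 with the GC offset). SPATA18, which acts in mitochondrial quality control, read 15.8 and 23.6 CPM against 10.5 to 14.7 CPM (difference 0.72, adjusted p = 0.157), and the kinase PLK3 17.8 and 16.9 CPM against 9.02 to 15.9 CPM (0.62, adjusted p = 0.228). BTG2, RPS27L and TIGAR were the other 3, with differences of 0.42, 0.44 and 0.41. CCNG1 differed from the other compounds by -0.01 and PLK2 by 0.00 (SE 0.09 each), and GADD45A, SESN1, SESN2 and GDF15 by 0.15 to 0.29 with adjusted p of 0.591 or more.

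**Figure D2:**
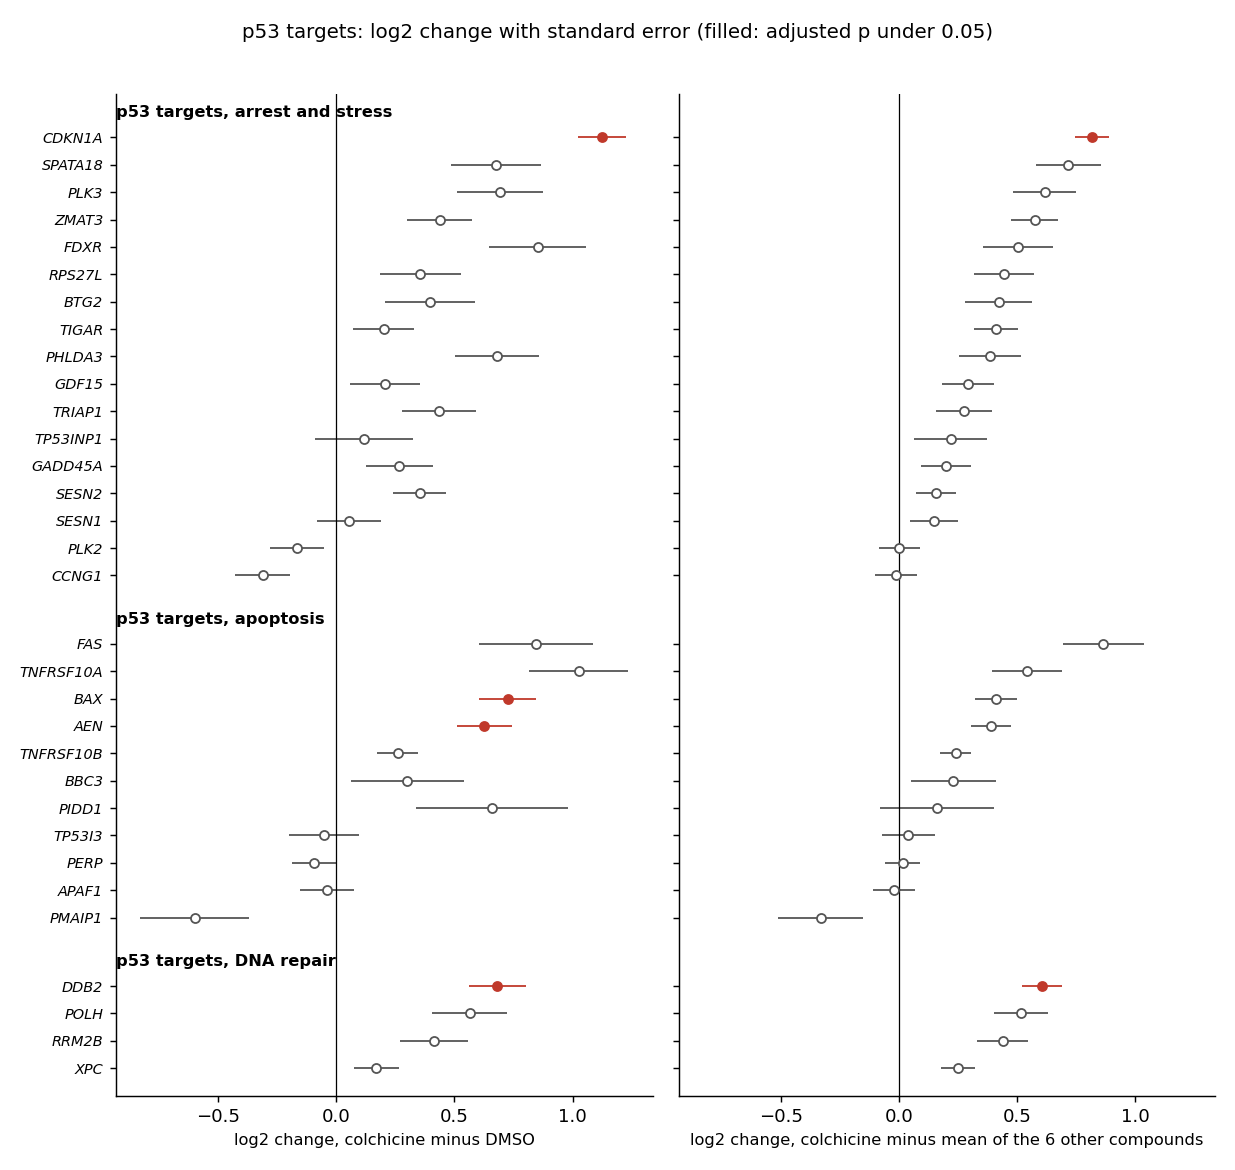
Log2 changes (horizontal axes, with standard errors) of the 32 tested p53 targets by role, colchicine minus DMSO on the left and colchicine minus the mean of the 6 other compounds on the right; filled points passed an adjusted p of 0.05. On the right 29 of 32 points lie above 0, CDKN1A and DDB2 being the filled ones.

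MDM2, the ubiquitin ligase that p53 induces and that degrades it, read 386 and 448 CPM with colchicine, 337 and 334 CPM with DMSO and 235 to 375 CPM with the other compounds. Both colchicine libraries were above the other 14, with a difference of 0.46 (SE 0.09) from the other compounds that did not pass (adjusted p = 0.17) but passed with the GC offset (0.49, adjusted p = 0.0471).

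MIR34AHG, the host transcript of the microRNA miR-34a and a p53 target, read 33.8 and 42.5 CPM with colchicine, 23.7 and 23.9 CPM with DMSO and 21.6 to 30.0 CPM with the other compounds. Its difference of 0.64 from the other compounds (SE 0.10) had an adjusted p of 0.0673, and of 0.0471 with the GC offset. The mature microRNA was not measured here. It is shown, from RefSeq (GRCh38.p14, chromosome 1, 9151735-9151756, minus strand), because its host stood above the other 14 libraries in both colchicine libraries, with the seed (bases 2 to 8) in capitals.
hsa-miR-34a-5p: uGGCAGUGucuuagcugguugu

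The promoters of these genes were read from RefSeq (GRCh38.p14) for the p53 half-site consensus, a palindrome of 10 bases searched without mismatch in the 250 bases before each annotated start; being a palindrome, it reads the same on both strands. It occurs before 1857 of 27305 genes (6.8%) and before 6 of the 26 p53 targets that were tested and have a usable window (23.1%). A full site, 2 half-sites at most 13 bases apart, occurs before 9 genes (0.033%), and PURPL is one of them. Its window, chr5:27472042-27472291 on the plus strand, is printed because PURPL rose against the other compounds, with the adjoining half-sites in capitals.
PURPL: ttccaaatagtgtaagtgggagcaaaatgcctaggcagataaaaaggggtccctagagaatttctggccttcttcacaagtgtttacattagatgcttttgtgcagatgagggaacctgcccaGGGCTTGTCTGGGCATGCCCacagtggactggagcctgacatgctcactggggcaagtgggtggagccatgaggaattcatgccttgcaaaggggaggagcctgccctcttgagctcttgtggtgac
A further 3 targets that stood above all other libraries have 1 half-site (capitals), shown on the strand of the gene: AEN at chr15:88621296-88621325 (plus), FAS at chr10:88991299-88991328 (plus) and RPS27L at chr15:63157517-63157546 (minus).
AEN: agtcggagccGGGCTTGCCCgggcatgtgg
FAS: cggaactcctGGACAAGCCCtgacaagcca
RPS27L: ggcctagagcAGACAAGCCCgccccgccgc
CDKN1A, DDB2 and BAX have no half-site in the window, which says only that these letters are not there. PLK2, which differed from the other compounds by 0.00, has 1. A match is a description of sequence and not of binding.

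The tubulins, which colchicine binds as proteins, gave no called gene in either comparison. Over all tested genes 0.126% rose and 0.0693% fell against DMSO, and 0.0163% rose against the other compounds. At such shares, no call among 12 does not set tubulins apart. Over 15 alternatives against DMSO, TUBA1C passed in 6, TUBB2A and TUBB4B in 3 each, TUBA1A and TUBB6 in 2 each, and TUBB and TUBB3 in none. All 12 tested alpha and beta tubulins were on the upper side of DMSO (median log2 difference 0.35, none called), and all 12 also lay above DMSO under the other compounds, with a median of 0.28. Colchicine minus the other compounds gave 8 of 12 above 0, a median of 0.07, none called, and no tubulin with both colchicine libraries beyond the other 14. Summed over the 12, the colchicine libraries held 2112 and 2153 CPM, DMSO 1850 and 1671 CPM and the other compounds 1773 to 2314 CPM. With the GC offset the median against DMSO was 0.19 and that against the other compounds 0.07.

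Per gene, TUBA1C read 153 and 166 CPM with colchicine, 118 and 106 CPM with DMSO and 117 to 160 CPM with the other compounds, the change nearest to the threshold among tubulins (0.51 against DMSO, SE 0.10, adjusted p = 0.0508; 0.18 against the others, SE 0.08, adjusted p = 0.642). TUBB2A changed by 0.71 against DMSO (SE 0.19, adjusted p = 0.0939) at 35.3 and 26.1 CPM, within the 21.4 to 35.5 CPM of the other compounds. TUBB, the most abundant beta tubulin here by reads, read 943 and 993 CPM against 917 and 847 CPM in DMSO and 873 to 1078 CPM in the others. TUBB3, the neuronal beta tubulin, lay below the mean of the other compounds by 0.22 (SE 0.13). TUBA1A and TUBA1C overlap on opposite strands, and tubulin copies are near-identical, so reads may be shared between them in a way the counting does not show.

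The coding starts of the tubulins carry the tetrapeptide signal through which tubulin mRNA is sensed. They are shown to set genes with the same first 15 bases beside each other. They are from GENCODE 29 transcripts, with the first 4 codons in capitals. TUBA1A, TUBA1B and TUBA1C are identical over these 15 bases, as are TUBB and TUBB4B, and TUBB3 and TUBB6. Different codons can encode the same amino acid, so starts that differ in bases can carry the same signal.
TUBA1A: ATGCGTGAGTGCatc
TUBA4A: ATGCGTGAATGCatc
TUBB: ATGAGGGAAATCgtg
TUBB2A: ATGCGCGAGATCgtg
TUBB2B: ATGCGTGAGATCgtg
TUBB3: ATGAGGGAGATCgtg
TUBB4A: ATGCGGGAGATCgtg
Among genes with the same coding start, the log2 change against DMSO was 0.13 for TUBB (SE 0.08) and 0.34 for TUBB4B (SE 0.09), and 0.35 for TUBB3 (SE 0.17) and 0.45 for TUBB6 (SE 0.14). None of these was called, and the differences within the pairs were not tested.

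**Figure D3:**
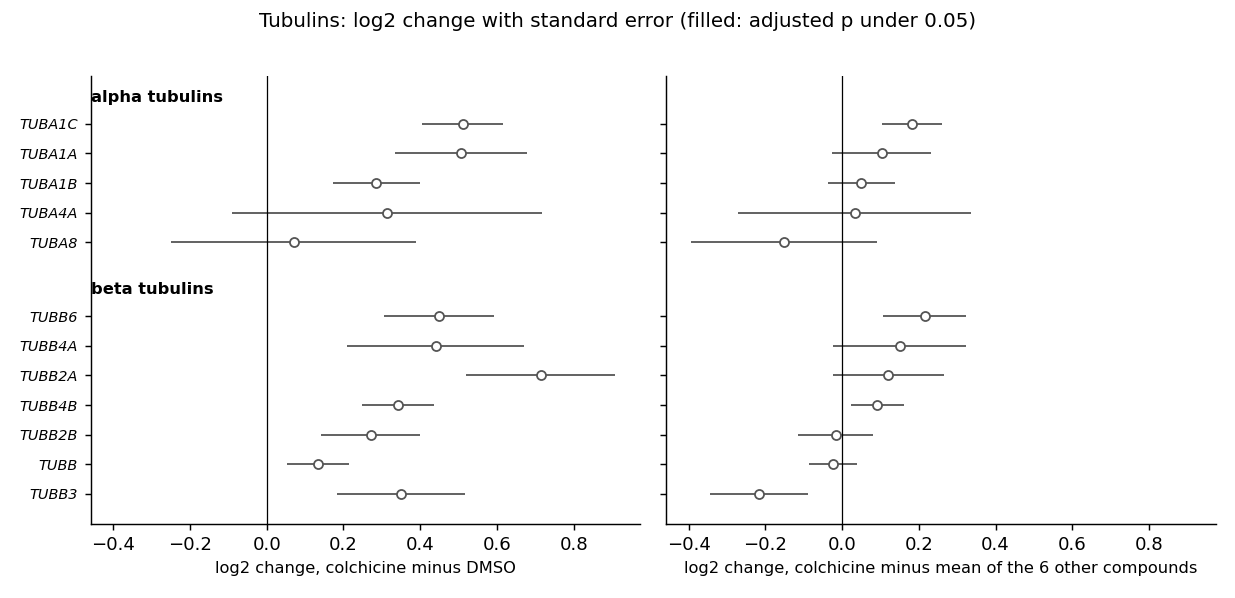
Log2 changes (horizontal axes, with standard errors, on 1 scale) of the 12 tested alpha and beta tubulins, colchicine minus DMSO on the left and colchicine minus the mean of the 6 other compounds on the right; open points did not pass. All 12 lie above 0 on the left, and 8 of 12 on the right.

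In the tubulin folding and mRNA decay list 13 of 23 lay above the other compounds (median 0.02), among microtubule-associated proteins and stathmins 17 of 29 (median 0.02), among transport motors 17 of 29 (median 0.03) and among tubulin modifying enzymes 3 of 14 (median -0.07), none of them called. Of 13 genes of gamma tubulin and its ring complex 7 lay above DMSO (median 0.04, 1 called). Of the 29 microtubule-associated proteins and stathmins 16 did (median 0.04, 1 called), and 0.126% of all tested genes were called higher. MZT2B, a subunit of the gamma-tubulin ring complex, rose by 0.83 against DMSO (SE 0.15, adjusted p = 0.0401). MID1IP1, which stabilises microtubules with MID1, rose by 0.73 against DMSO (SE 0.13, adjusted p = 0.0461). MZT2B read 26.5 and 25.6 CPM with colchicine but 17.2 to 33.5 CPM with the other compounds, which span it (difference 0.13, SE 0.11). MID1IP1 read 30.5 and 28.7 CPM against 18.4 to 28.8 CPM, a difference of 0.37 (SE 0.10, adjusted p = 0.391).

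For genes of mitosis the colchicine libraries deviated from DMSO in opposite directions. The median log2 deviation from DMSO over 25 genes of mitosis and the spindle checkpoint was -0.66 in Colchicine 1 and 0.15 in Colchicine 2, and over 20 genes of DNA replication -0.41 and 0.24. MKI67, a marker of cycling cells, read 68.1 CPM in Colchicine 1 and 147 CPM in Colchicine 2, with 128 and 123 CPM in DMSO and 59.3 to 145 CPM with the other compounds, so the colchicine pair spanned nearly the whole series. The endocrine scores of the pair, 3.28 and 1.89, differed as well, and their part in this was not tested. No gene of either list was called in the comparison with DMSO or with the other compounds. CDKN1A was at 106 and 114 CPM in these libraries.

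Among matrix genes LAMA4 had 0.625 and 0.654 CPM (16 and 19 reads) in colchicine, 5.53 and 6.63 CPM in DMSO, and 0.913 to 6.84 CPM (median 2.73) in the other compounds. LAMA4 is the alpha-4 chain of the laminins of vessel and mesenchymal basement membranes. Both colchicine libraries were below all 14 others. The fall against DMSO was -3.24 (SE 0.48, adjusted p = 0.0401) and passed in 8 of 15 alternatives. The difference of -2.05 from the other compounds did not pass (SE 0.42, adjusted p = 0.179). That difference passed in 4 of 27 alternatives, among them the endocrine score as a covariate (adjusted p = 0.0156) and DESeq2 (adjusted p = 0.000614). The other compounds differed widely among themselves: the vardenafil libraries lay near those of colchicine, with a mean of 1.01 CPM, and epirizole and Ly-294002 near DMSO, with 4.80 and 5.38 CPM. The gene lies on chromosome 6 at 112108760-112254939, minus strand, and LAMA4-AS1 overlaps it.

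Of the 11 laminins 8 lay above DMSO (median 0.18) and 6 above the other compounds (median 0.03). LAMA3, a chain of epithelial basement membranes, read 86.1 and 86.0 CPM, above all 14 other libraries (48.0 to 80.2 CPM), a change of 0.50 against DMSO that did not pass (SE 0.14, adjusted p = 0.103). LAMA5 changed by 0.64 against DMSO (SE 0.13, adjusted p = 0.0508) and by 0.20 against the other compounds (adjusted p = 0.696). Of 30 collagens 12 lay above DMSO and 11 above the other compounds (medians -0.20 and -0.11). COL2A1, the fibrillar collagen of cartilage, read 1008 and 957 CPM with colchicine, 564 and 542 CPM with DMSO and 588 to 992 CPM with the other compounds, a rise of 0.83 against DMSO (SE 0.10, adjusted p = 0.00993) and a difference of 0.40 from the other compounds that did not pass (SE 0.08, adjusted p = 0.157). COL19A1 fell against DMSO by 0.94 on the log2 scale (SE 0.16, adjusted p = 0.0401) and lay 0.52 below the other compounds (adjusted p = 0.302). Of 22 matrix glycoproteins and proteoglycans 11 lay above DMSO and 11 below (median -0.07), with 1 called higher and 1 called lower. The one called higher, the basement membrane proteoglycan HSPG2, rose by 0.64 against DMSO (SE 0.12, adjusted p = 0.0444). It read 1684 and 1518 CPM, inside the 1100 to 1758 CPM of the other compounds. The matrix receptor DAG1 (dystroglycan) rose by 0.42 (SE 0.08, adjusted p = 0.0468), and both its libraries, at 312 and 337 CPM, were above all others.

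Of 20 markers of mesenchyme, whose values are given beside LAMA4, 18 lay below DMSO and 17 below the other compounds, with medians of -0.82 and -0.52, and 1 of 20 was called, RUNX2 against DMSO, where 0.0693% of all tested genes were called lower. RUNX2, the transcription factor of bone formation, read 1.76 CPM in both colchicine libraries, 6.14 and 5.33 CPM in DMSO and 2.39 to 8.76 CPM in the others, below all 14 (-1.70 against DMSO, SE 0.30, adjusted p = 0.0401; -1.28 against the others, SE 0.25, adjusted p = 0.164). TWIST1 read 2.97 and 2.82 CPM against 15.2 and 12.3 CPM in DMSO, CDH11 46.9 and 41.5 CPM against 107 and 127 CPM, and COL6A3 73.5 and 70.4 CPM against 189 and 180 CPM, none of them called and none below all others. ACTA2, smooth muscle actin, was the other marker below all 14, at 15.0 and 17.1 CPM, which makes 2 of 20 against 1.53% of all tested genes. Summed, the 20 markers held 3900 and 3830 CPM with colchicine, 4784 and 4457 CPM with DMSO and 3292 to 5764 CPM with the other compounds, and the lowest library was not one of colchicine. None of the markers was at 0 in any library, but TWIST2 was below the 3-read floor in Colchicine 1: THY1 lay at 0.547 and 1.34 CPM and TWIST2 at 0.0391 and 0.172 CPM. The part of mesenchymal cells in the LAMA4 difference was not tested. SGCD, a sarcoglycan of muscle-type membranes, read 4.30 and 2.62 CPM against 10.2 and 11.8 CPM in DMSO and 4.78 to 9.64 CPM with the others, also below all 14 (-1.68 against DMSO, SE 0.29, adjusted p = 0.0401).

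**Figure D4:**
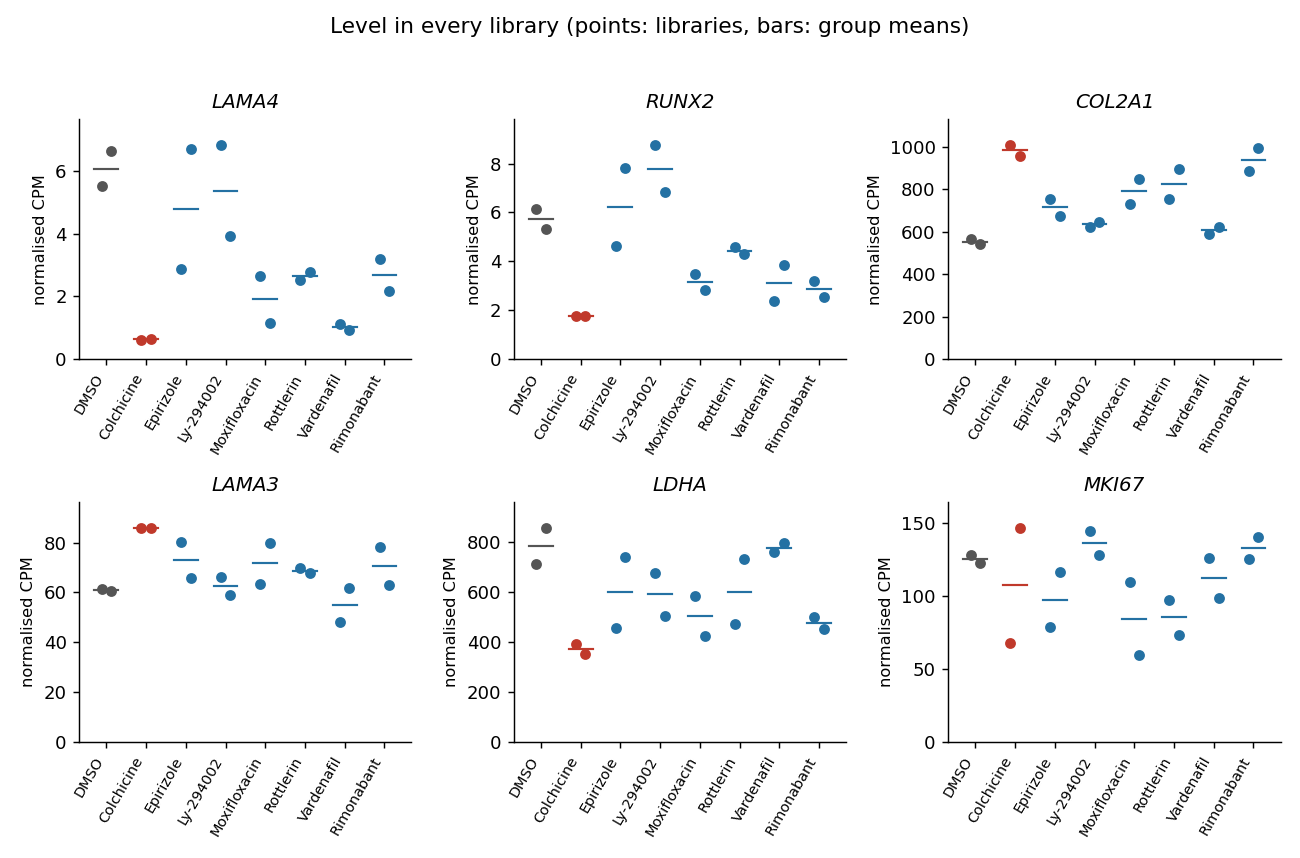
Normalised CPM (vertical axes, from 0) of LAMA4, RUNX2, COL2A1, LAMA3, LDHA and MKI67 in each of the 16 libraries, by group; points are libraries and bars are means of 2. The colchicine points are the lowest 2 for LAMA4, RUNX2 and LDHA and the highest 2 for LAMA3, while for MKI67 they lie 68.1 and 147 CPM apart.

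Singled out after their values were seen from the 31 genes that rose against DMSO (0.126% of those tested), cofilin (CFL1), which severs actin filaments, rose by 0.54 (SE 0.10, adjusted p = 0.0447) and filamin A (FLNA), which crosslinks them, by 0.53 (SE 0.10, adjusted p = 0.0468). CFL1 read 358 and 338 CPM with colchicine, inside the 268 to 366 CPM of the other compounds. Neither gene passed against the other compounds (adjusted p = 0.676 for CFL1 and 0.658 for FLNA).

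Over all 48 genes called against DMSO, the other compounds lay on the same side of DMSO for each. For the 31 that rose the median log2 change was 0.63 with colchicine and 0.34 with the other compounds, and for the 17 that fell -0.82 and -0.42. The other compounds share the DMSO libraries with this comparison, so a deviation of those 2 libraries enters both values. The 48 genes were also selected by their colchicine values, which by itself favours colchicine lying farther from DMSO than the other compounds. The share of all tested genes with both on the same side of DMSO is not given here. In 9 of the 31 both colchicine libraries were also above all 14 others, which held for 1.13% of all tested genes. In 9 of the 17 both were below all 14, which held for 1.53%. Selecting genes by their colchicine difference from DMSO raises both counts, so they are not separate support. The 9 that rose were CDKN1A, DDB2, BAX, AEN, MYADM, DAG1, EDEM2, ARF3 and KRT18, and the 9 that fell were LAMA4, RUNX2, SGCD, GNAL, SOX11, SP4, SLC5A3, ESF1 and THOC1. Transcripts that rose had a median GC content of 59.0% and those that fell 45.0%, against 48.5% over all tested genes, and with the GC offset CDKN1A alone was called against DMSO. Without Colchicine 1, Colchicine 2, DMSO 1 or DMSO 2 the count was 2, 1, 1 and 1, with CDKN1A in each.

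**Figure D5:**
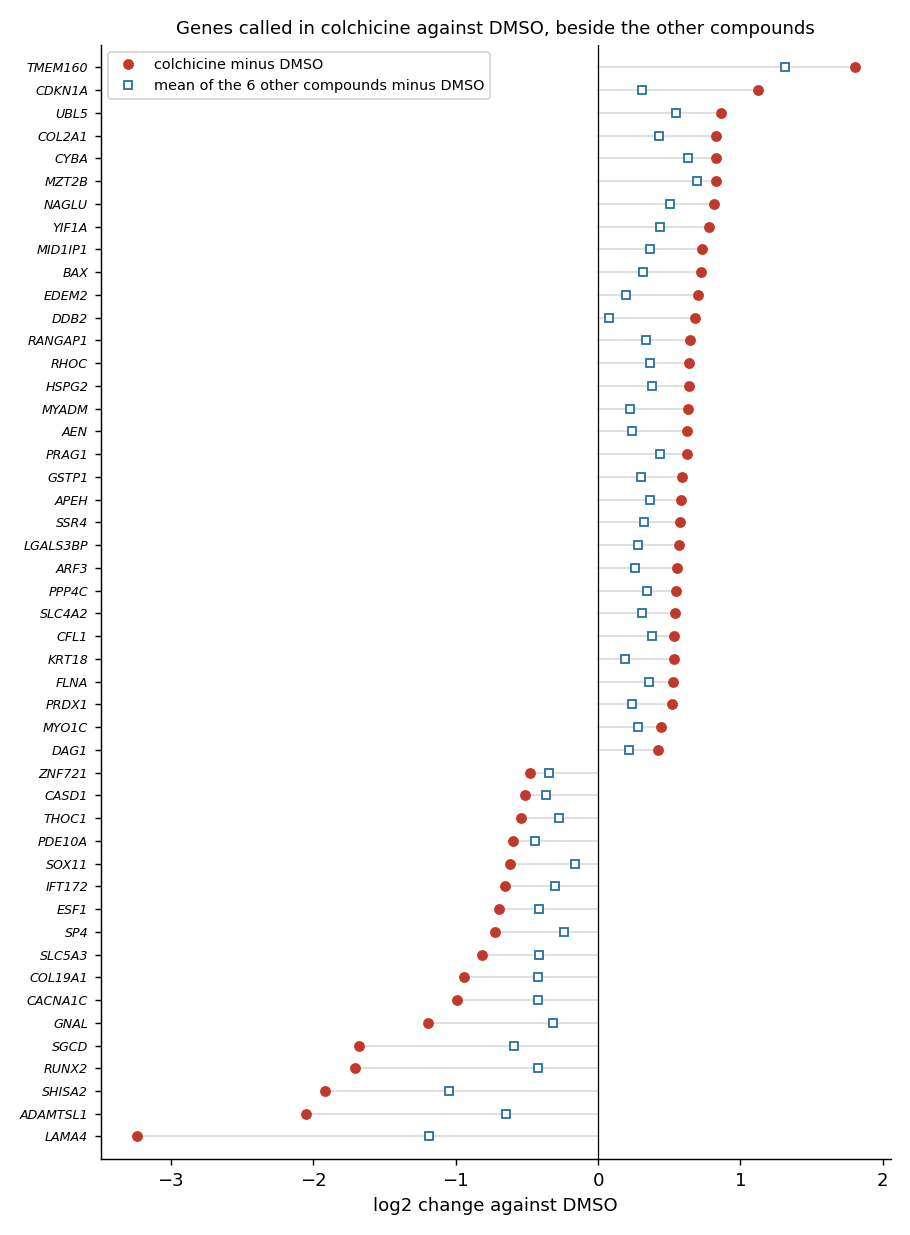
Log2 change against DMSO (horizontal axis) of the 48 genes called with colchicine, for colchicine (filled circles) and for the mean of the 6 other compounds (open squares). Every square lies on the same side of 0 as its circle and nearer to 0. The markers CDKN1A, DDB2 and LAMA4 show gaps, and those of RUNX2 and GNAL are wider than those of CDKN1A and DDB2. The genes were selected by the values of the circles, which favours circles farther from 0 than the squares.

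Of the genes that fell and stood below all other libraries, GNAL, a G-protein alpha subunit, read 4.69 and 3.37 CPM with colchicine against 9.58 and 8.82 CPM in DMSO and 5.68 to 10.96 CPM with the other compounds (-0.88 against the latter, SE 0.16, adjusted p = 0.141). SOX11, a transcription factor of embryonic progenitors, read 133 and 135 CPM against 213 and 200 CPM in DMSO and 160 to 213 CPM in the others (-0.46, SE 0.08, adjusted p = 0.149). GNRH2, a gonadotropin-releasing hormone, read 5.39 and 5.99 CPM against 9.09 to 18.0 CPM in the other compounds (-1.11, SE 0.19, adjusted p = 0.127), and was the gene that fell against them with the GC offset (adjusted p = 0.0477). ATF3, a stress-induced transcription factor, also passed with that offset: it read 103 and 128 CPM with colchicine and 122 and 114 CPM with DMSO but 65.7 to 90.5 CPM with the other compounds, below both (difference 0.53 with the offset, adjusted p = 0.0471).

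Of 19 genes of glycolysis and the hypoxia response 16 lay below DMSO and 15 below the other compounds (medians -0.56 and -0.39), none called. LDHA, which makes lactate, read 392.5 and 351.9 CPM with colchicine, 711 and 859 CPM with DMSO and 426 to 796 CPM with the other compounds. LDHA, PGK1, TPI1, NDRG1 and BNIP3 stood below all 14 others, 5 of 19, against 1.53% of all tested genes. PGK1 came nearest to the threshold against DMSO (-0.80, SE 0.18, adjusted p = 0.0631). Transcripts of the mitochondrial genome lay below DMSO for 13 of 13 (median -0.57), but so they did with the other compounds (median -0.43), and colchicine differed from those by a median of -0.07. Of the peroxiredoxin and oxidative stress list 12 of 15 lay above DMSO and 14 of 15 above the other compounds (median 0.15). Of all tested genes 48.83% and 49.92% did so. The 2 list members called against DMSO were PRDX1, a peroxidase, with a rise of 0.52 (SE 0.09), and CYBA, with 0.83. Both were at adjusted p = 0.0401, and 0.126% of all tested genes were called higher against DMSO. GSTP1, a glutathione transferase outside that list, rose by 0.59 (SE 0.10, adjusted p = 0.0401). None of these genes passed against the other compounds (adjusted p = 0.242 for PRDX1 and 0.303 for GSTP1). In the unfolded protein and integrated stress list 7 of 15 lay above the other compounds (median -0.01).

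Of 19 endocrine genes 5 lay above DMSO and 14 below (median -0.14), and the median deviation was 0.45 for Colchicine 1 but -0.71 for Colchicine 2. Of 15 hormone and beta cell factor genes 12 lay above DMSO (median 0.32), but the deviation was 0.58 in Colchicine 1 and -0.37 in Colchicine 2, and none was called. PDX1 read 53.7 and 29.9 CPM with colchicine, 36.4 and 30.7 CPM with DMSO and 22.6 to 51.9 CPM with the other compounds. Fetal liver markers lay above DMSO for 13 of 16 (median 0.41) and above the other compounds for 8 of 16 (median 0.04).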

How the data were processed

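Total RNA was depleted of ribosomal RNA and sequenced as paired ends, per the labels' protocols, which name Trimmomatic 0.38, STAR 2.7.1a and featureCounts 1.6.0; the submitters' processing notes name HTSeq and GRCh38. The deposited file holds raw read counts per gene, 62754 genes in 16 libraries. Annotation release, strand setting and multimapping are not given in the sources used here.

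Here the 24515 genes that passed filterByExpr were fitted with edgeR 4.0.16 (R 4.3.3; TMM, robust quasi-likelihood) over all 8 groups, with 8 residual degrees of freedom and Benjamini-Hochberg adjustment at 0.05. The contrasts were colchicine minus DMSO, colchicine minus the mean of the 6 other compounds, and those compounds minus DMSO. DESeq2 1.42.0, other scalings and filters, a GC offset, a replicate block, an endocrine covariate and left-out libraries were alternatives. The scripts were tested on simulated data. Positions and overlaps came from GENCODE 29.

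Named genes were the 12 largest rises and 12 largest falls per comparison (called, at least 1 CPM, colchicine libraries on 1 side of every library compared), or the 10 of smallest p where fewer than 5 passed; CDKN1A, DDB2, BAX and LAMA4; up to 6 members per gene list; and the 5 of smallest p beyond all other libraries in each direction. Other list members were named after their values were seen. Members and lists were chosen with earlier results of these data known. Some results are not reported here.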

Additional observations from a re-analysis of the deposited data

How the results depend on the processing

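The count of genes called between colchicine and DMSO, 48 by edgeR, was 150 with RLE size factors, 1568 without a filter, 144 with a minimum of 1 CPM, 1 with the GC offset, 134 with only the groups compared, 1413 with the endocrine score as covariate and 926 by DESeq2. It was 754 with that covariate and the GC offset together, an alternative chosen after seeing the data. Leaving out 1 library gave 1 to 2. Against the other compounds the count of 4 became 475 without a filter, 8 with the GC offset, 35 with the endocrine score, 81 with that score and the GC offset, 1 with only the groups compared and 81 by DESeq2, and 1 to 11 with 1 library left out. Between the other compounds and DMSO the count of 0 became 792 without a filter, 404 with the endocrine score and 441 by DESeq2, and ranged from 0 to 457 with 1 library left out, the last without Rimonabant 1. Genes with both colchicine libraries above all others numbered 506 after GC correction. The cause of these shifts was not tested.

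With the replicate block the counts were 5 against DMSO, 2 against the other compounds and 1 for the other compounds against DMSO, and with block and GC offset 1 and 2. The numbers are not known to pair the libraries: over 28 pairs of groups the correlation of deviations ran from -0.63 to 0.56, and 10 were over 0.1.

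With 2 libraries a group the spread rests on all 8 groups, and a library left out leaves a lone sample assumed to vary like the others.

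Log2 changes of named genes switched sign in 57 instances, in each of which the gene was called neither before nor after. Against DMSO, BBC3 was -0.0053 with the endocrine score and GC offset, and GDF15 was -0.0012 with the GC offset and -0.0055 with both. Against the other compounds, CCNG1 was 0.0195 with the GC offset, 0.0196 with the replicate block and GC offset and 0.0189 with the endocrine score and GC offset, and AFP was 0.0175, 0.0139 and 0.0134 in the same order and 0.0251 with DMSO added to the other groups. PLK2 was -0.0027 with upper-quartile factors, -0.000133 with the replicate block, -0.0052 with the endocrine score, -0.00657 without rimonabant and -0.0219 with DMSO added. MKI67 was -0.0336 with the endocrine score, -0.0152 with that score and the GC offset and -0.0151 with DMSO added, and PDX1 was -0.0133 and -0.0155 under the first pair and -0.0390 without rimonabant.

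With 1 library left out, the ranges against DMSO were -0.18 to 0.13 for ATF3, -0.34 to 0.0057 for PLK2, -0.15 to 0.26 for SESN1, -0.86 to 0.24 for MKI67, -0.15 to 0.70 for PDX1 and -0.999 to 2.14 for INS. Against the other compounds they were -0.0503 to 0.0372 for CCNG1, -0.17 to 0.17 for PLK2, -0.0683 to 0.35 for SESN1, -0.0533 to 0.0166 for TUBB, -0.11 to 0.33 for TUBB2A, -0.63 to 0.47 for MKI67, -0.46 to 0.38 for PDX1, -1.40 to 1.05 for INS and -0.27 to 0.20 for AFP. Over all alternatives the mitosis median ran from -0.67 to 0.17 against DMSO and from -0.56 to 0.30 against the other compounds, and the laminin median from -0.02 to 0.24 against the other compounds.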
